A study of Mus musculus with 36 samples.

Results

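The frontal cortex of the mouse was compared between the dark and the light phase of the daily cycle, with circRNAs counted one by one and also summed per host gene. The comparison took the 18 frontal cortex samples of the 36 samples in the series, 9 of the dark phase (ZT13, ZT17 and ZT21) against 9 of the light phase (ZT1, ZT5 and ZT9), with 3 replicates at each of the 6 time points. ZT is zeitgeber time in hours from lights on, and the light phase ends at ZT12. Every sample is total RNA, depleted of ribosomal RNA, from mice labelled C57BL/6, which the study's methods give as adult males of C57BL6/N. No genotype or drug differed between the groups, and each time point is a separate set of animals, so that phase here means the time of dissection under a light-dark schedule. The dissected piece is the frontal lobe, a bulk tissue, and fewer cells of a type and less RNA per cell cannot be told apart.

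CircRNAs are single-stranded RNA circles made when the spliceosome joins the end of a downstream exon back to the start of an upstream exon of the same transcript. The joining competes with normal splicing, and because the product has no free ends it is protected from exonucleases and outlives most messenger RNAs. Brain is rich in circRNAs, many of them from genes for synaptic proteins, and neurons can build them up over time. Mice are active mainly in the dark, and cortical messenger RNAs of clock, activity-regulated and synaptic genes are known to vary over the day. A circular read spans the head-to-tail junction, so a count of such reads tells circles from the linear RNA of the same host.

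The table listed 19811 circRNAs, and 4790 of them were kept because at least 2 replicates of some time point held them. A host was the annotated gene that held both ends of the circle on the same strand. Of the circRNAs kept, 4666 had a host, and they fell on 2156 hosts that took 97.9% of the 314007 circular reads. Both ends lay on annotated exon edges for 4150 circRNAs. Most hosts, 1195 of 2156, had 1 circRNA, 37 had 10 or more, and the most for one host was 52. Reads were found in all 18 samples for 373 hosts.

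The junctions that follow belong to the circRNAs on which the comparison turns, the ones with the most reads and those with the smallest unadjusted p-values. Each is written 5′ to 3′ on the strand of the host, with the last 15 bases of the final exon in lower case and the first 15 bases of the opening exon in capitals. The change of case is the head-to-tail junction, a join that linear RNA of the host lacks.
Cdr1as (host C230004F18Rik, exon 6, chromosome X, plus strand, GRCm38): gtctgccgtatccagGGTTTCCAGTGGTGC
Tulp4 (chr17:6137211-6139156, plus strand, GRCm38): ggccacaacagtgagAGTTGTAAGAGTCCA
Gigyf2 (exons 4 to 8, chr1:87364104-87380008, plus strand, GRCm38): gaagaaaagatgtagGCTCCGTGCTCTGTC
Dtnb (exons 5 to 8, chr12:3617606-3648389, plus strand, GRCm38): gagcattcctcttggTGAGGGCCGAGGCAA
Ppp2r2c (exons 2 to 6, chr5:36922968-36940261, plus strand, GRCm38): acaagcactccaagcCTGACGTCATCTCCA
Mfsd6 (exon 2, chr1:52708164-52709755, minus strand, GRCm38): gattggccatatcagATCACCATTCAGAAT
Tox (exons 2 to 3, chr4:6822905-6842426, minus strand, GRCm38): aattccatctctgtgTTTGACGGGGAGAAC
Rap1gap2 (exons 4 to 8, chr11:74435701-74441785, minus strand, GRCm38): tcggatcatcctcagTCTGCGGAGTTCTTC
Kansl1 (exons 4 to 7, chr11:104356684-104378826, minus strand, GRCm38): cctctttctaagaagGAAACGTAGGTCTGA
Dennd1b (exons 10 to 14, chr1:139081173-139110485, plus strand, GRCm38): cagctctttaagcagTTAACTGCCTGTCTC
Arhgap32 (exons 6 to 9, chr9:32181842-32190061, plus strand, GRCm38): aagcatggatttcagGGCAAGAGTTGGATT

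One library stands apart from the rest and bears on several results. ZT9 replicate 3, of the light phase, had 6555 circular reads on the circRNAs kept, against 9886 to 29678 in the other 17 samples. Its median correlation with the other samples, across hosts on a log scale, was 0.557, while the other 17 had medians between 0.712 and 0.842. Of the 559 hosts tested, 132 had no read in it, against 1 to 54 in the others. The host of Cdr1as had 319 normalized reads in it, and Ptms, which encodes the nuclear protein parathymosin, had 347, far above the 50.5 that was the most in any other sample. It carries the same label as its replicates and was kept in the main tests. Values without it are given beside many of the results that it moved, but not beside every one.

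The circRNAs kept gave 19831 ± 5251 circular reads in the dark phase and 15058 ± 4400 in the light phase (SD, n = 9 each), without normalization to sequencing depth. The lowest, median and highest dark samples had 12641, 19074 and 29678 reads, and the light samples had 6555, 15776 and 20030. The groups overlapped, and the difference of 31.7% was short of the threshold when all splits into 9 and 9 samples were enumerated (two-sided exact permutation, p = 0.0519, adjusted p = 0.0865 over the 5 measures per sample). Without ZT9 replicate 3 it was 23.0% (exact permutation test, p = 0.107).

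More circRNAs and more hosts were detected per sample in the dark phase when every sample was thinned at random to the 6555 reads of the smallest library, but this call rested on circRNAs left with a single read. The number of circRNAs was 2021 ± 138 in the dark and 1783 ± 281 in the light phase (SD, n = 9 each), 13.3% higher, with p = 0.0168 and an adjusted p of 0.0420 in the exact permutation test. For hosts it was 1192 ± 59.5 against 1075 ± 132, 10.9% higher, with p = 0.00782 and an adjusted p of 0.0391 in the same exact test. Hosts per dark sample ran from 1088 over a median of 1214 to 1256, and per light sample from 758 over 1133 to 1172. The groups overlapped, with the highest light sample below the dark median.

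The smallest count the table lists above 0 is 2, so that a circRNA seen once in a library is listed at 0 there. In a deeper library thinned to 6555 reads, circRNAs can still be counted from 1 remaining read. When 2 or more reads per circRNA were asked for after thinning, an alternative chosen after the result was seen, the dark phase was 1.64% higher for circRNAs and 1.96% higher for hosts (exact permutation test, p = 0.209 and 0.118). With ZT9 replicate 3 set aside as well and thinning to 9886 reads, the differences were 2.06% and 2.32% (p = 0.0911 and 0.0585, exact permutation test). Setting that library aside with 1 read allowed gave 10.3% and 8.54% (p = 0.0466 and 0.0224, exact permutation test). Asking for 2 reads takes circRNAs from deeper libraries but none from ZT9 replicate 3, which was not thinned. The deepest library, ZT21 replicate 2 of the dark phase, had the fewest at 2 or more reads, 1112 circRNAs and 751 hosts. Which setting gives the truer difference between the phases was not tested. After thinning to 6555 reads, 187 of the 2156 hosts had reads in dark samples only and 94.8 in light samples only (means over draws). These were again counted from 1 remaining read, and the count was not repeated with 2 or more. Before thinning the counts were 141 and 48 of the 2156. None of those hosts was found in more than 6 of the 9 dark or 4 of the 9 light samples.

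**Figure D1:**
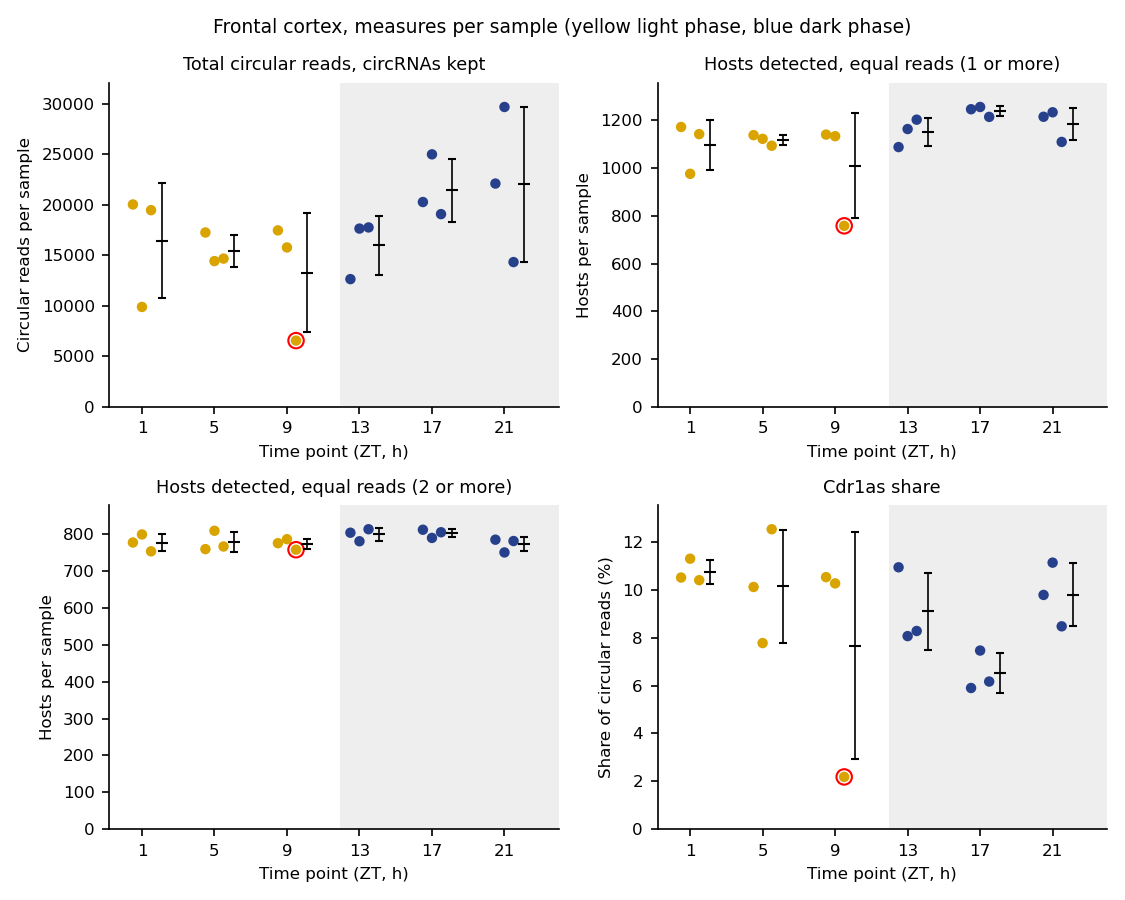
Total circular reads, hosts detected at 6555 reads per sample with 1 or more and with 2 or more reads per circRNA, and the Cdr1as share of circular reads in percent, each against zeitgeber time in hours. Points are the 18 frontal cortex samples (yellow light phase, blue dark phase, shaded from ZT12), bars give the mean and SD of 3 replicates, and the red ring marks ZT9 replicate 3, which is lowest in the panels of total reads, of hosts with 1 or more reads and of Cdr1as, while the dark and light hosts with 2 or more reads lie within one range.

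Circular reads outside host genes made up 1.99 ± 0.518% of reads in the dark and 2.16 ± 0.557% in the light phase (SD, n = 9 each), a difference of -0.165 percentage points (two-sided exact permutation test, p = 0.519, adjusted p = 0.519). The largest circRNA of this kind, on the minus strand of the unplaced sequence JH584304.1 (25369 to 60857), ran from 18.3 to 257 normalized reads in the dark (median 102) and from 22.2 to 265 in the light phase (median 174). The ranges nearly coincide, while 8 of 9 dark samples lay below the light median, for a log2 difference of -0.44 with standard error 0.32 (unadjusted p = 0.175, adjusted p = 0.993 in edgeR). Without ZT9 replicate 3 it was -0.55 (unadjusted p = 0.0525).

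Summed per host, no gene passed the test for a difference between the phases. Of 2156 hosts, 559 passed the low-count filter of edgeR. None of them (0, or 0% of the 559) had a Benjamini-Hochberg adjusted p under 0.05 in the quasi-likelihood test of edgeR, and the smallest adjusted p was 0.971. At an unadjusted p under 0.05 there were 21 hosts or 3.76% of those tested, 11 higher (1.97%) and 10 lower (1.79%) in the dark. DESeq2 also gave 0, with 22 at an unadjusted p under 0.05. The dark and light samples overlapped for every host tested. The median log2 fold change, dark minus light, was 0.04, and 316 of 559 hosts lay above 0. The balance depended on scaling. With raw counts and no scaling the median was 0.41, and all 78 hosts at an unadjusted p under 0.05 were higher in the dark.

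The depth of a host set how small a difference could be seen. Its 95% confidence interval lay within a 2-fold change in either direction for 431 hosts (77.1%) and within a 1.5-fold change for 166. Among the 44 hosts with 1000 or more reads over the 18 samples, 43 intervals lay within 1.5-fold and the log2 fold changes ran from -0.23 to 0.23. Among the 214 hosts with 100 to 200 reads, the median standard error was 0.35 and 117 intervals lay within 2-fold. For the 12 hosts with under 100 reads, no interval lay within 2-fold, so each interval reached past a change of that size, and 2 of these hosts had an unadjusted p under 0.05.

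**Figure D2:**
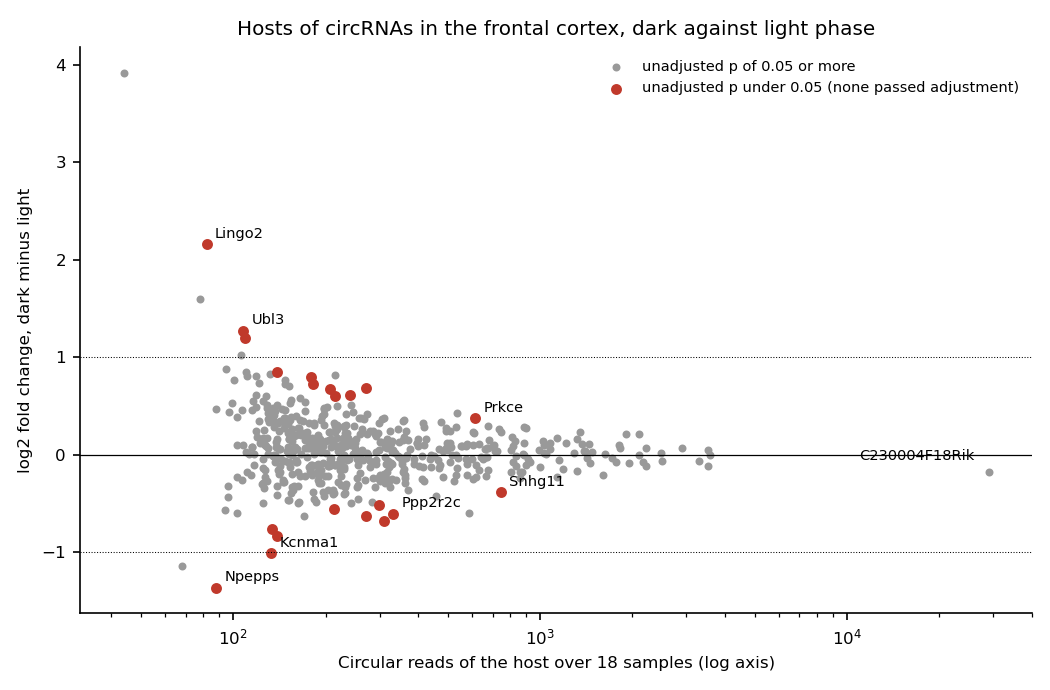
Log2 fold change of each of the 559 hosts tested, dark minus light, against its circular reads over the 18 samples on a log axis. Red points are the 21 hosts with an unadjusted p under 0.05, none of which passed the adjustment, and dotted lines mark 2-fold. The spread narrows as reads increase, and the 44 hosts with 1000 or more reads lie between -0.23 and 0.23.

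Apart from the host of Cdr1as, the hosts with the most reads had similar medians in both phases. Tulp4, a gene of the tubby family, had 3567 circular reads, 92.0% of them from 1 circRNA. Its normalized reads were 184 to 224 in the dark (median 200) and 143 to 235 in the light phase (median 207), with a log2 fold change of 0.00 (95% interval -0.20 to 0.20). Gigyf2, a translational repressor, had 163 to 204 (median 184) in the dark and 156 to 279 (median 179) in the light phase. Rims1, a scaffold of the presynaptic active zone, had 169 to 214 (median 199) in the dark and 147 to 213 (median 201) in the light phase. Atxn1, a polyglutamine gene that acts in transcription, had a log2 fold change of -0.12 (95% interval -0.32 to 0.08), or -0.05 without ZT9 replicate 3. In each of these hosts the light extreme on one side was ZT9 replicate 3.

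The host of Cdr1as depended on that one library. Cdr1as is a circle with many binding sites for miR-7 and is found mainly in excitatory neurons. C230004F18Rik, the annotated long noncoding gene that holds it, had 28971 circular reads, 99.3% of them Cdr1as. Normalized reads were 990 to 2094 in the dark (median 1441) and 319 to 2307 in the light phase (median 1868), and 7 of 9 dark samples lay below the light median. The log2 fold change was -0.18 (standard error 0.19, 95% interval -0.57 to 0.21, unadjusted p = 0.347, adjusted p = 0.971 in edgeR). Without ZT9 replicate 3 it was -0.33 (standard error 0.08) with an unadjusted p of 0.000214, the smallest of the 559 hosts, and an adjusted p of 0.120, which still missed the threshold. In the other 17 fits that each left out 1 sample, the log2 fold change ran from -0.24 to -0.08 with unadjusted p-values of at least 0.232.

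As a share of circular reads, Cdr1as took 8.47 ± 1.88% in the dark and 9.52 ± 3.02% in the light phase (SD, n = 9 each), a difference of -1.05 percentage points (two-sided exact permutation test, p = 0.403, adjusted p = 0.504). The dark samples ran from 5.90 over 8.28 to 11.1%, and the light samples from 2.18 over 10.4 to 12.5%. With ZT9 replicate 3 left out, the difference was -1.96 points (exact permutation test, p = 0.0281, not adjusted). Within the dark phase the 3 replicates of ZT17 held the lowest shares.

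The 10 hosts in each direction with the smallest p-values are described next, although none passed the adjustment, and their values describe these samples rather than a difference between the phases. Ppp2r2c, a brain regulatory subunit of protein phosphatase 2A with 1 circRNA, had the smallest p. Its normalized reads were 10.03 to 22.3 in the dark (median 15.5) and 15.6 to 35.2 in the light phase (median 23.3). All 9 dark samples lay below the light median, for a log2 fold change of -0.60 with standard error 0.20 (unadjusted p = 0.00537, adjusted p = 0.971 in edgeR). Kcnma1, the pore-forming subunit of the BK potassium channel, ran from 0 to 9.06 in the dark (median 4.40) and from 8.12 to 12.7 in the light phase (median 10.005). All dark samples again lay below the light median, and replicates 1 and 3 of ZT17, at 9.06 and 8.93, were the ones inside the light range. The difference was -1.01 with standard error 0.35 on the log2 scale (unadjusted p = 0.00748, adjusted p = 0.971 in edgeR) from 133 reads in all.

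Stxbp5l (tomosyn-2), which holds back vesicle release, was at 5.77 to 21.1 in the dark (median 12.9) and at 11.6 to 37.3 in the light phase (median 19.4), spread over 6 circRNAs of which the largest held 31.6% of its reads. Mfsd6, a member of the major facilitator superfamily, was at 6.59 to 21.01 in the dark (median 11.6) and at 12.7 to 27.2 in the light phase (median 17.2). Tox, a high-mobility-group transcription factor, was at 8.04 to 19.1 in the dark (median 16.4) and at 7.23 to 25.2 in the light phase (median 23.3). For Tox the lowest of all 18 samples was a light one, ZT1 replicate 2, so the groups overlapped fully at the low end. Rap1gap2, a GTPase-activating protein for Rap1, kept its 9 dark samples between 4.47 and 6.59, a narrower range than the 3.33 to 18.1 of the light samples. The other hosts lower in the dark were Npepps, a cytosolic aminopeptidase, Arhgef28, a guanine nucleotide exchange factor, the noncoding host gene Snhg11, and C2cd5, a C2-domain protein, with log2 fold changes from -1.37 to -0.38.

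Among hosts higher in the dark, Lingo2, a leucine-rich repeat membrane protein, had the smallest p and the fewest reads, 82 in all. It ran from 0 to 15.3 normalized reads in the dark (median 6.33) and from 0 to 5.82 in the light phase (median 2.79), for a log2 fold change of 2.16 with standard error 0.82 (unadjusted p = 0.0146, adjusted p = 0.971 in edgeR). All 3 replicates of ZT9 were at 0, so the fitted value is no bound on the fold. With phase as the only factor it was 1.078 (unadjusted p = 0.0912 in edgeR). Scaper, which acts in the cell cycle and at cilia, had 12.04 to 26.5 in the dark (median 15.6) and 0 to 14.2 in the light phase (median 11.6), where the 0 was ZT9 replicate 3. All 9 dark samples were above the light median. Grip1, a scaffold that binds AMPA receptors, had 9.43 to 30.8 in the dark (median 14.8) and 5.59 to 19.8 in the light phase (median 10.005). Ubl3, a ubiquitin-like membrane-anchored protein, had 4.22 to 12.9 in the dark (median 8.04), while 4 light samples were at 0 and the light median was 1.86.

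The remaining hosts higher in the dark were Utrn (utrophin), the transcriptional corepressor Runx1t1, the deubiquitinase Usp15, the pantothenate kinase Pank1, the small GTPase Arf3 and the protein kinase C isoform Prkce, with log2 fold changes from 0.37 to 1.19. Of these, Utrn, Usp15, Pank1 and Arf3 had no read in ZT9 replicate 3. Leaving out 1 light sample moved the log2 fold change of Ubl3 from 1.27 to 2.77 (ZT5 replicate 2), that of Pank1 from 1.19 to 2.12 (ZT5 replicate 1) and that of Arf3 from 0.68 to 1.02 (ZT9 replicate 1). Prkce had the most reads of the group, 615, and ran from 23.9 to 46.1 in the dark (median 40.4) and from 13.2 to 43.1 in the light phase (median 29.4), with ZT9 replicate 3 as its lowest sample.

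Without ZT9 replicate 3, 0 of the 559 hosts passed the adjustment and 40 had an unadjusted p under 0.05 (7.16%), 23 higher (4.11%) and 17 lower (3.04%) in the dark. DESeq2 was not run on this set of samples. Of the 21 hosts found with all samples, 15 were among these 40. Snhg11 was not, since its log2 fold change moved from -0.38 to -0.21 (unadjusted p = 0.135 in edgeR), and its 108 normalized reads in that library were the most of any sample. Npepps moved from -1.37 to -1.03 (unadjusted p = 0.0741). Prkce, Rap1gap2, Arhgef28 and Pcdh7 were not among them either, with unadjusted p-values of 0.0701, 0.0855, 0.0616 and 0.0673 in edgeR. After C230004F18Rik, the smallest p-values in this fit belonged to Hivep2, a zinc finger transcription factor (log2 fold change 0.46, standard error 0.15, unadjusted p = 0.00521, adjusted p = 0.658 in edgeR), Stxbp5l and Glcci1 (-0.49, standard error 0.17, unadjusted p = 0.00614). Hivep2 and Glcci1 are named after their values were seen.

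**Figure D3:**
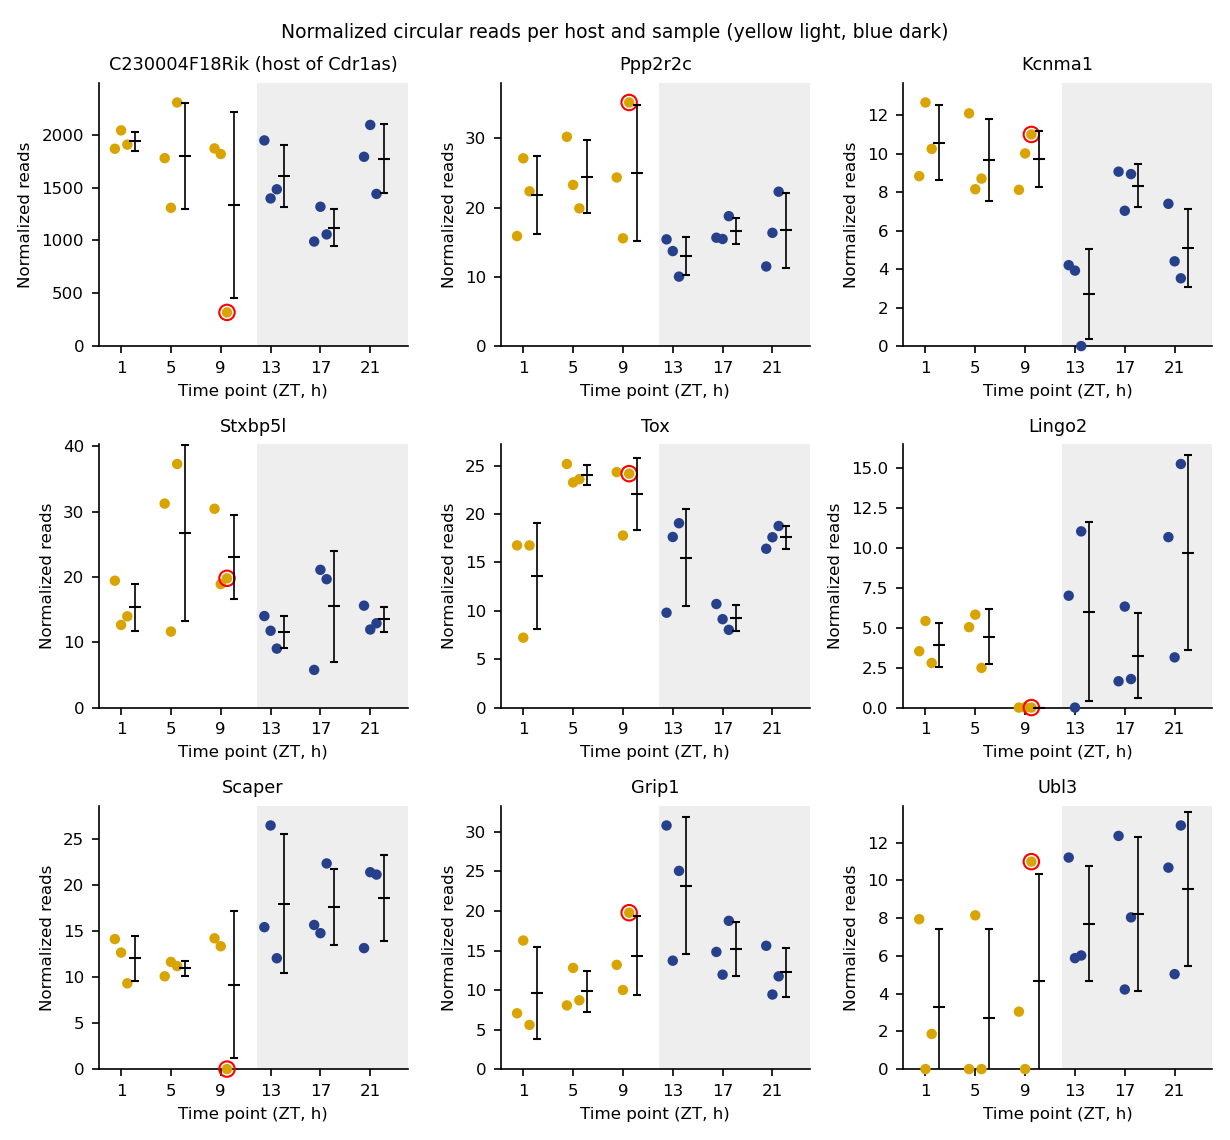
Normalized circular reads of 9 hosts in the 18 frontal cortex samples against zeitgeber time in hours, with the mean and SD of 3 replicates beside the points (yellow light phase, blue dark phase, red ring ZT9 replicate 3). For C230004F18Rik the ringed sample is at 319 while the other light samples are at 1309 to 2307, and in every panel the dark and light samples overlap.

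Genes of the circadian clock gave few circles. Of 30 clock genes searched, 13 had any circRNA listed, 5 had one that was kept (Clock, Npas2, Cry1, Hlf and Btrc), and only Npas2 had enough reads to be tested. The core repressors Per1, Per2 and Cry2 and the nuclear receptor Nr1d1 had no circRNA in the table. Npas2, a partner of BMAL1 that can stand in for CLOCK in the forebrain, had 7.02 to 19.7 normalized reads in the dark (median 13.2) and 0 to 23.3 in the light phase (median 18.1), with a log2 fold change of -0.31 (95% interval -0.91 to 0.29, unadjusted p = 0.303, adjusted p = 0.971 in edgeR). Its light value of 0 was ZT9 replicate 3, and without that library the log2 fold change was -0.44 (unadjusted p = 0.0636 in edgeR). Clock had 18 raw reads in 6 dark samples and 8 in 2 light samples. Cry1 had 28 in 9 dark and 30 in 7 light samples. These sums are not scaled, and the dark samples held 31.7% more circular reads on average.

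Of 29 activity-regulated genes, Homer1 and Ntrk2 had a circRNA that was kept, and Homer1 was tested. Homer1 encodes a postsynaptic scaffold whose short messenger RNA is induced by neuronal activity. Its circular reads were 27.0 to 47.2 in the dark (median 35.1) and 4.40 to 58.9 in the light phase (median 34.9), with medians that nearly coincide. The log2 fold change was -0.02 (95% interval -0.47 to 0.43), or -0.16 without ZT9 replicate 3, its lowest sample. Immediate-early genes such as Arc, Egr1 and Npas4 had no circRNA listed. Of 16 kinases linked to sleep need, 6 had a circRNA that was kept, and Camk4 was tested. Camk4, a calcium/calmodulin-dependent kinase, had a log2 fold change of 0.51 (95% interval -0.48 to 1.51) from 86 raw reads in the dark and 43 in the light phase.

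No member of the lists of synaptic genes passed the adjustment. Of the 33 genes on the presynaptic release list, 24 had a circRNA that was kept and 12 were tested. The 12 include Dtnb at 0.06, which was on this list although it is a dystrobrevin gene. A positive log2 fold change was found for 9 and a negative one for 3 (median 0.05, against 0.04 over all hosts). Without ZT9 replicate 3 the median turned to -0.0075, against 0.03 over all hosts. Stxbp5l was the one with an unadjusted p under 0.05. Rims2 and Erc2, also of the active zone, had log2 fold changes of 0.04 and 0.10 (standard errors 0.15 and 0.14), and Cadps, which primes dense-core vesicles, had -0.03.

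Of 32 postsynaptic scaffold genes, 16 were tested (median log2 fold change 0.06, or 0.12 without ZT9 replicate 3), 9 positive and 7 negative, and Grip1 was the one with an unadjusted p under 0.05. Shank3 had -0.29 (standard error 0.20), Dlg1 (SAP97) had -0.01 (0.17) and Sorbs2 had 0.43 (0.22). Glutamate receptor genes had 5 of 24 tested, between -0.26 for Grin2a and 0.25 for Grin2b, which are alternative subunits of the NMDA receptor. Both tested GABA receptor genes of 14, Gabra2 and Gabra4, were at 0.18 and 0.20 with standard errors of 0.30 and 0.36.

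Of 43 adhesion genes, 11 were tested (median -0.03, which turned to 0.03 without ZT9 replicate 3), 5 positive and 6 negative, from Nrxn3 at -0.26 to Adgrl3 (latrophilin-3) at 0.42, and none had an unadjusted p under 0.05. Of 44 ion channel genes, 17 were tested (median 0.03), 11 positive and 6 negative, and Kcnma1 alone had an unadjusted p under 0.05. The next lowest were the sodium channel Scn8a at -0.47 (standard error 0.32) and Ano3 at -0.47 (0.40). Kcnt2, a sodium-activated potassium channel with 1400 reads, was at 0.03 (0.17), and turned to -0.10 without ZT9 replicate 3.

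Regulators of RNA, chromatin and protein turnover also spread around 0. Of 42 RNA-binding genes, 9 were tested (median 0.08, or 0.048 without ZT9 replicate 3), from Celf2 at -0.37 to Ptbp3 at 0.76, with 5 above 0. Elavl3, the neuronal RNA-binding protein HuC, had the most reads and was at -0.01 (standard error 0.16), or -0.11 without ZT9 replicate 3. Of 50 chromatin genes, 14 were tested (median 0.17, or 0.094 without ZT9 replicate 3), 8 above 0, with Hdac4 at 0.81 (standard error 0.49) and Kat6b, a histone acetyltransferase with 1762 reads, at -0.07 (0.11). Of the 44 genes on the ubiquitin list, 11 were tested (median 0.22), and 9 of the 11 were above 0, against 56.5% of all hosts. None had an unadjusted p under 0.05. The 11 include Ubn2 at -0.12, a ubinuclein gene that was counted on this list although it is not of the ubiquitin system. Ankib1, a ubiquitin ligase of the RBR type, was at 0.06 (0.16), and ZT9 replicate 3 held its lowest value, 24.2, against a light median of 105. Without that library the median of the ubiquitin genes was 0.18 and Ankib1 was at -0.05. Of 34 hosts of well-studied circRNAs, 23 were tested, between -0.21 and 0.26 with a median of 0.02, which turned to -0.02 without ZT9 replicate 3. Hipk3, Zfp609 and Slc8a1 of that list were at 0.02 (standard error 0.15), 0.08 (0.18) and -0.08 (0.13). With no scaling the medians of the 10 functional lists with 2 or more tested members were between 0.33 and 0.56, where the median of all hosts was 0.41.

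**Figure D4:**
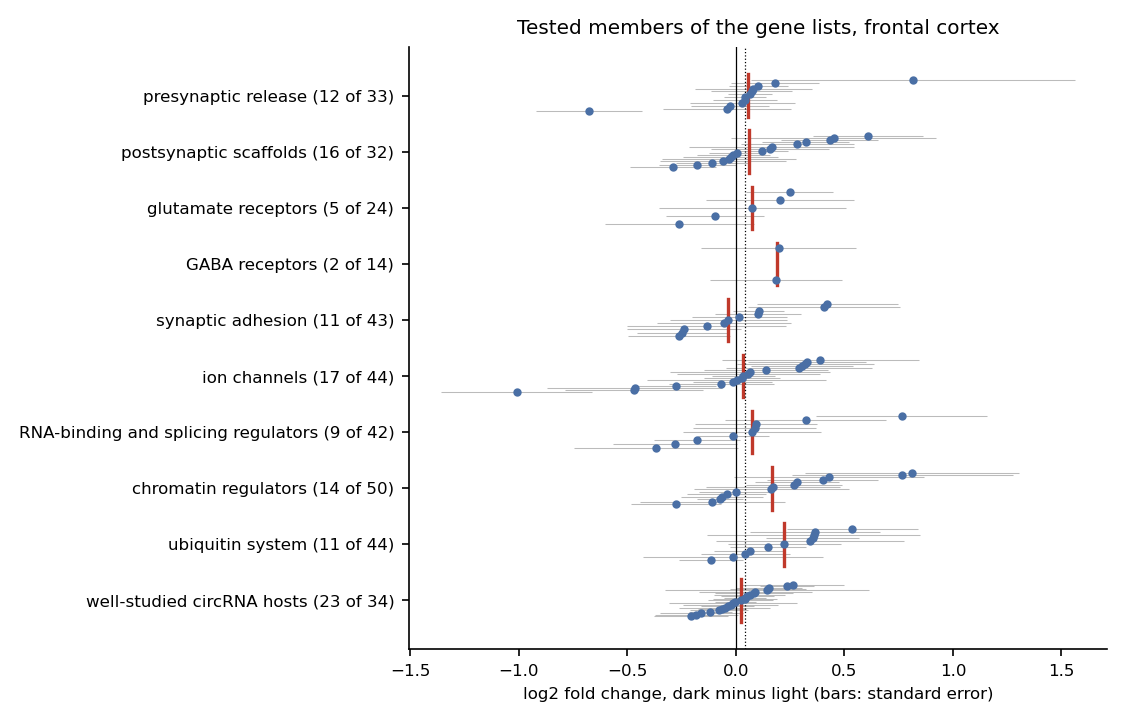
Log2 fold change, dark minus light, with its standard error for each tested member of 10 gene lists, with tested and listed members in brackets. Red bars are list medians, between -0.03 and 0.22, the dotted line is the median of all 559 hosts at 0.04, and each list has members on both sides of 0 except the GABA receptors with 2 members.

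Marker genes were thinly covered by circles. Of the cortical layer markers, Tle4, a transcriptional corepressor of deep layers, was at 0.70 on the log2 scale (standard error 0.49, dark minus light). Together the 8 cortical layer markers held 6.23 to 21.4 of every 10000 circular reads in dark samples (median 14.2) and 4.05 to 18.3 in light samples (median 11.0). Markers of astrocytes, oligodendrocytes, their precursors, microglia and endothelial cells had no circRNA that was kept, so their share in the samples was not measured. Of 9 markers of GABAergic neurons Erbb4 had a circRNA that was kept, with 13 raw reads in the dark and 14 in the light phase, and 1 of 6 markers of glutamatergic neurons had one. Of the hippocampus markers, 3 of 6 had a circRNA that was kept, with 82 raw reads in the dark and 73 in the light phase. Of the 7 striatum markers Pde10a had 12 reads in all.

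Taken one by one, 518 circRNAs were tested and 0 (0%) passed the adjustment in edgeR (smallest adjusted p 0.993), with 16 or 3.09% at an unadjusted p under 0.05, 6 higher (1.16%) and 10 lower (1.93%) in the dark, and 17 in DESeq2. Without ZT9 replicate 3 the count at an unadjusted p under 0.05 was 31 (5.98%), with 13 higher (2.51%) and 18 lower (3.47%), and again 0 passed the adjustment. For Ppp2r2c, Mfsd6, Tox and Rap1gap2 the host has 1 circRNA kept, so the junctions printed above carry the host values. The circRNA of Kansl1, a subunit of a histone acetyltransferase complex, had 10.7 to 17.7 normalized reads in the dark (median 15.2) and 4.04 to 15.2 in the light phase (median 8.17), for a log2 fold change of 0.73 with standard error 0.24 (unadjusted p = 0.00540, adjusted p = 0.993 in edgeR). That of Dennd1b, an exchange factor for Rab GTPases, had 5.71 to 15.0 in the dark (median 10.4) and 3.67 to 9.34 in the light phase (median 6.07). The circRNA of Arhgap32 had 14.2 to 24.6 in the dark (median 17.8) and 8.10 to 22.2 in the light phase (median 13.5), while its host as a whole, a GTPase-activating protein of the postsynaptic density, was at 0.12 (standard error 0.12). In all of these the groups overlapped. The Dtnb circRNA, from a dystrobrevin gene, had 104 to 155 in the dark (median 118) and 56.6 to 133 in the light phase (median 106), with a log2 difference of 0.18, or 0.11 without ZT9 replicate 3.

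The signs within a host can be set beside the 281 of 518 circRNAs with a positive log2 fold change. In 86 hosts with 2 or more tested circRNAs, 60 of them with exactly 2, all circRNAs of the host had the same sign in 35 and mixed signs in 51, and the median range of log2 fold changes within a host was 0.28. The 44 single-exon circRNAs tested had a median log2 fold change of -0.03, the 309 with 2 to 5 exons 0.05 and the 110 with 6 or more exons -0.03, against 0.02 over all 518. Use of one circle relative to the others of its host was tested with edgeR's exon-usage test in these 86 hosts. No host passed the adjustment (0%, smallest adjusted p 0.319), and 4 (4.65%) had an unadjusted p under 0.05.

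The host with the smallest p in that test was Anks1b, which encodes a postsynaptic protein that binds PSD-95 (unadjusted p = 0.00371, adjusted p = 0.319 in edgeR), while its summed reads had a log2 fold change of 0.00. Of its 4 tested circRNAs, 3 share the end of exon 8 and differ in the opening exon, and the fourth lies downstream. The junctions are shown because the share of the first differed most between the phases here, although the host missed the threshold.
Anks1b exons 3 to 8 (chr10:90042546-90077142, plus strand, GRCm38): ggaagccagagtgtaGGACATAGTTCTCAA
Anks1b exons 4 to 8 (chr10:90049816-90077142, plus strand, GRCm38): ggaagccagagtgtaAACAACGAGAACGAA
Anks1b exons 5 to 8 (chr10:90069468-90077142, plus strand, GRCm38): ggaagccagagtgtaACAGAAAAGGGGAGT
Anks1b exons 18 to 21 (chr10:90895099-90923602, plus strand, GRCm38): tgtgcaaagatgcggGTTTTAAAAATCAGT
Shares here and below are of the reads on the tested circRNAs of a host, not of all its circular reads. The circle of exons 3 to 8 held 26 of 734 dark reads (3.54%) and 53 of 572 light reads (9.27%). Per sample its share was 0 to 7.69% in the dark (median 3.51%) and 3.85 to 14.5% in the light phase (median 8.82%), with 2 dark samples at 0. The other 3 tested circRNAs held 31.7, 50.0 and 14.7% of these dark reads and 28.1, 48.3 and 14.3% of these light reads, nearly equal in both phases.

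Myrip, which links vesicles to myosin, had 2 tested circRNAs that share no exon (unadjusted p = 0.0120, adjusted p = 0.515 in edgeR). Of the reads on these 2 circRNAs, the circle of exons 10 to 11 (chr9:120432353-120441581) held 46.0% in the dark and 62.7% in the light phase. The circle of exons 12 to 15 (chr9:120453527-120464961) held the rest of them. Per sample the share of the first ran from 18.2 to 70.6% in the dark (median 44.8%) and from 40 to 81.2% in the light phase (median 62.5%), so the groups overlapped widely. Dlgap1, a scaffold that binds PSD-95, had 2 tested circRNAs that open at exon 10 and close at exon 11 or exon 12 (unadjusted p = 0.0314, adjusted p = 0.799 in edgeR).
Dlgap1 exons 10 to 11 (chr17:70761075-70766089, plus strand, GRCm38): agaagaagagaagtgTGTCATCTTGCATTA
Dlgap1 exons 10 to 12 (chr17:70761075-70787209, plus strand, GRCm38): acctcccagaagacaTGTCATCTTGCATTA
The capitals of these junctions are the same, since the opening exon is shared. The shorter circle held 42.5% of dark reads and 31.8% of light reads, with sample shares of 35.5 to 52.4% in the dark (median 40.6%) and of 0 to 44.7% in the light phase (median 32.3%). The light 0 was ZT9 replicate 3, and the other light samples ran from 20 to 44.7%.

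**Figure D5:**
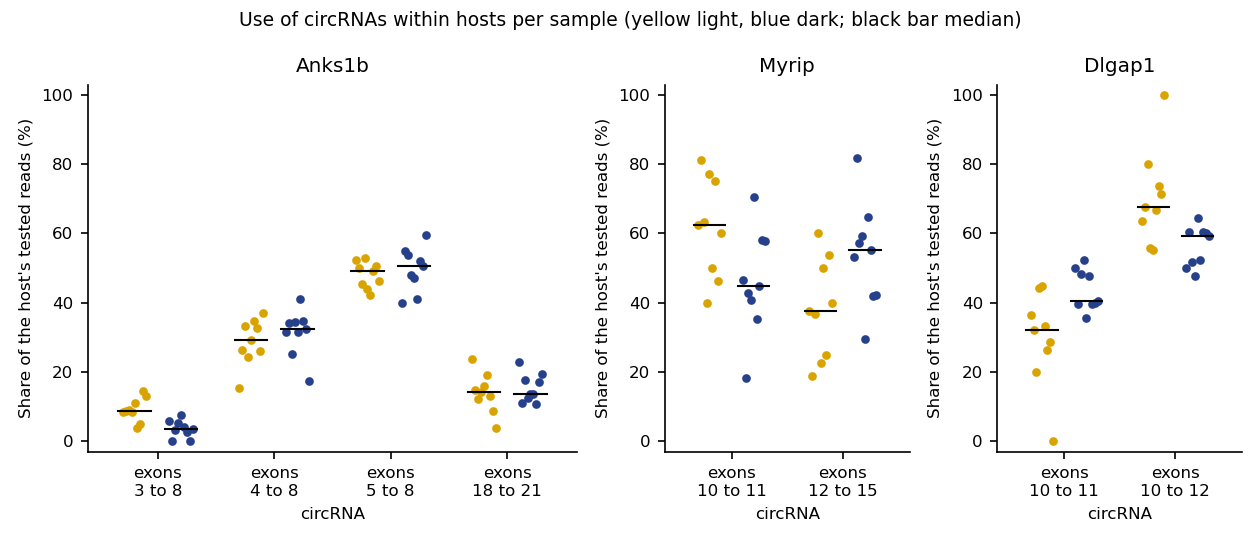
Share of each tested circRNA in the tested reads of its host, in percent, for Anks1b, Myrip and Dlgap1 in 9 light (yellow) and 9 dark (blue) samples, with medians as black bars. The Anks1b circle of exons 3 to 8 has medians of 8.82% in the light and 3.51% in the dark phase, while the other Anks1b circles have medians close to each other.

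Time points within one phase could differ as well, and the host model was used to ask whether the 3 light or the 3 dark time points differed among themselves. No host passed the adjustment (0% of 559), and 20 (3.58%) had an unadjusted p under 0.05. The smallest p belonged to Ptms (unadjusted p = 0.000355, adjusted p = 0.198 in edgeR), whose ZT9 mean of 138 ± 181 normalized reads (SD, n = 3) rested on ZT9 replicate 3. Gm26917, a predicted gene, followed (unadjusted p = 0.000721, adjusted p = 0.202 in edgeR). Its samples ran from 3.28 to 177 in the dark and from 4.97 to 152 in the light phase with medians of 14.001 and 13.97, and replicates differed widely within ZT1 (90.5 ± 73.6, SD, n = 3), ZT13 (99.7 ± 76.0) and ZT17 (67.1 ± 95.04). Tenm3, a teneurin adhesion protein, had 19.1 ± 3.71 at ZT1 against 5.61 ± 0.566 at ZT5 and 10.04 ± 0.932 at ZT9 (SD, n = 3 each, unadjusted p = 0.00398, adjusted p = 0.742 in edgeR), and its dark time points were between 8.10 and 12.6.

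The phase difference in the frontal cortex was compared with that in the hippocampus in one fit of 36 samples over 718 hosts. The fit took the samples as separate. The sample titles do not name the animal, so any pairing of cortex and hippocampus by mouse was not modelled. No host passed the adjustment for a difference between the tissues (0%, smallest adjusted p 0.661), and 41 (5.71%) had an unadjusted p under 0.05, 26 (3.62%) with the cortical log2 fold change above the hippocampal one and 15 (2.09%) below, and 52 in DESeq2, which also gave 0 adjusted calls. Ssbp2, which encodes a single-stranded DNA-binding protein, had the smallest p. Its cortical samples were at 101 to 139 normalized reads in the dark (median 127) and at 82.8 to 123 in the light phase (median 112), and its hippocampal samples at 58.5 to 95.4 in the dark (median 81.2) and at 85.1 to 116 in the light phase (median 101). The cortical log2 fold change minus the hippocampal one was 0.51 (standard error 0.15, unadjusted p = 0.00198, adjusted p = 0.661 in edgeR). Ppa2, a mitochondrial pyrophosphatase, and Kmt2c, a histone methyltransferase, had differences of 2.22 and 1.77 (standard errors 0.68 and 0.56), in the same direction. For Ppa2, 4 cortical light samples were at 0, and the difference was 3.48 without ZT5 replicate 1 of the cortex. For Kmt2c it was 2.93 without ZT13 replicate 2 of the hippocampus and 1.07 with all circRNAs listed. In the opposite direction Zfp608, Arhgef28 and Ptms had -2.88, -1.13 and -1.45 (standard errors 0.95, 0.40 and 0.56). For Zfp608, a zinc finger gene, 5 cortical dark samples and 2 cortical light samples were at 0, and the cortical medians were 0 in the dark and 5.61 in the light phase. Its difference was -1.88 with all circRNAs listed. For Ptms the highest cortical light sample was again ZT9 replicate 3, with 390 reads on the scale of this fit, and the difference was -0.76 without that library (unadjusted p = 0.103 in edgeR).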

How the data were processed

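The authors deposited raw counts: each value is the number of reads across the head-to-tail junction of a circRNA in one sample, called by CIRI2 from BWA alignments to GRCm38, with replicates apart. Samples were grouped by the time points in the labels, and 1 column of the tables that matched no single sample was not used. As in the study's methods, a circRNA was kept if 2 replicates of some time point held it. Each was given a host in GENCODE M21 (both ends in the gene, same strand), and the reads were summed per host. Where 96 circRNAs lay in several genes, 1 host was chosen by a fixed rule and the alternative without them was run. Junction sequences were read from the GENCODE M21 transcripts.

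R 4.3.3 with edgeR 4.0.16 was used for the tests of counts (TMM scaling, default filterByExpr filter, quasi-likelihood fit, 6 time-point coefficients, the mean of 3 dark minus the mean of 3 light time points, Benjamini-Hochberg adjustment at 0.05), with DESeq2 1.42.0 as an alternative. A shift common to every circRNA is removed by TMM, and no depth of sequencing other than the circular reads was used. Normalized reads are scaled to the mean library total. The standard error was the absolute log2 fold change divided by the square root of the test's F statistic. Intervals used a t quantile on it, and can differ slightly from the printed p-value. For the measures per sample, exact permutation (two-sided, all 48620 splits) was used, with thinning repeated in 20 draws. The tests were tested on simulated data. Python 3.11.15, numpy 2.4.6 and scipy 1.17.1 were used.

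The text names the host of Cdr1as, the 5 hosts and 5 circRNAs with the most reads, the 10 hosts and 5 circRNAs with the smallest p in each direction, the tested member of each list with the most reads, any list member at an unadjusted p under 0.05, and the 3 hosts with the smallest p for circle use, within phases and in each direction between tissues. Other list members were named for their place in the list after their values were seen. A few genes that the rule covers are not reported here. The comparison, the lists and the tests were chosen with earlier results of these data known. Replicates are called biological in the labels. No pair of replicates had counts within sampling noise of each other.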

Additional observations from a re-analysis of the deposited data

Results flagged for a closer look

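In 100 groups of 9 samples (the dark and the light samples of 5 measures and of 45 hosts), 12 had a sample far from the others. The groups share the same libraries, and many of the hosts were picked for their values here, so no rate by chance applies. Of these 12, 11 were ZT9 replicate 3 and all lay in the light phase. That library set the depth for thinning and was not itself thinned. It had 758 hosts with 1 or more reads, against 976 to 1172 in the other light samples after thinning. With 2 or more reads per circRNA it had 758 against 754 to 809. That threshold took hosts from the thinned libraries but none from this one, so these counts do not compare like with like. Its Cdr1as share was 2.18%, against 7.78 to 12.5%. C230004F18Rik was at 319 normalized reads (others 1309 to 2307), Kcnt2 at 15.4 (65.1 to 98.2), Ankib1 at 24.2 (95.4 to 127) and Scaper at 0 (9.31 to 14.2), all below the rest. Above the rest were Atxn1 at 281 (184 to 216), Gigyf2 at 279 (156 to 213), Arhgef28 at 19.8 (6.67 to 12.1), Snhg11 at 108 (29.8 to 52.4) and Ptms at 347 (8.38 to 39.8). The other sample was ZT1 replicate 2 for Tox, at 7.23 against 16.8 to 25.2 in the other light samples. What set ZT9 replicate 3 apart was not tested.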

How the results depend on the processing

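For hosts, circRNAs, circle use, differences within phases and differences between tissues, 0 passed the adjustment in the alternatives run, with the exceptions given here. Without a filter on low counts, 5 hosts differed within phases and 2 between the tissues (Ptms at -1.34 with an adjusted p of 0.000703, and Gm26917), over 2156 and 2644 hosts. The smallest adjusted p in edgeR was 2.98e-43 within phases and 4.62e-11 between the tissues. The fits without a filter were not repeated without ZT9 replicate 3. Leaving out 1 sample gave 0 to 1 hosts within phases (Ptms without ZT9 replicate 1 or 2, Gm26917 without ZT17 replicate 3), and 12 to 40 hosts between the phases at an unadjusted p under 0.05 (12 without ZT21 replicate 1, 40 without ZT9 replicate 3). For circRNAs this count was 12 to 31, with 27, 25 and 31 without ZT9 replicate 1, 2 or 3. Without a filter 160 hosts of 2156 (128 higher in the dark) and 326 circRNAs of 4790 (254 higher) had an unadjusted p under 0.05, and without scaling 63 circRNAs (62 higher) and, between tissues, 172 hosts (171 higher) did. With Cdr1as set aside, total reads were 33.9% higher in the dark (exact permutation test, p = 0.0366). With Cdr1as kept, leaving out 1 sample gave 23.0 to 37.7%, with p from 0.0191 to 0.107 in the exact permutation test. Detected circRNAs and hosts after asking for 2 reads were 1.64% and 1.96% higher, or 2.06% and 2.32% with ZT9 replicate 3 set aside. The Cdr1as difference ran from -1.96 to -0.669 points when 1 sample was left out.

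With the replicate number as a block, 20 hosts and 15 circRNAs had an unadjusted p under 0.05 and no call changed. Same-numbered samples deviated together in 3 of 45 pairs (r over 0.1), and 7 of 18 samples correlated best with their own number.

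Among 73 log2 values of named hosts and circRNAs, dark minus light or the difference of this between the tissues, some close to 0 turned sign. Scaled to total circular reads, Tulp4 was 0.0077, Elavl3 0.00026 and Zbtb20 0.0086. Without a filter, Tulp4 was 0.062, Gigyf2 0.0096 (its circRNA 0.075), Homer1 0.032, Elavl3 0.043 and Zbtb20 0.043. Zbtb20 was 0.024 with DESeq2 and 0.057 with the block, and the Tulp4 circRNA -0.00038 with DESeq2. With phase as the only factor, Gm26917 was 0.26 and Tenm3 -0.13. When 1 sample was left out, ranges that crossed 0 were, for hosts, Tulp4 -0.052 to 0.035, Rims1 -0.00080 to 0.076, Gigyf2 -0.11 to 0.031, Homer1 -0.16 to 0.086, Anks1b -0.048 to 0.067, Kcnt2 -0.10 to 0.14, Elavl3 -0.11 to 0.057, Ankib1 -0.052 to 0.16, Zbtb20 -0.21 to 0.24, Ptms -0.77 to 0.065, Gm26917 -0.90 to 0.36 and Tenm3 -0.077 to 0.082. For circRNAs they were Tulp4 -0.042 to 0.097, Gigyf2 -0.079 to 0.037 and Anks1b exons 5 to 8 -0.035 to 0.13. The cause of these shifts was not tested. Depth limits the hosts with few reads, and totals of sequenced reads were not used here.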
